A study of Mus musculus with 76 samples.

Results

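S100 proteins are small calcium-binding proteins, and galectins are lectins that bind beta-galactoside sugars on cell surface glycoproteins. The 9 genes described here are the S100 genes S100a4, S100a6, S100a8, S100a9, S100a10, S100a11 and S100a13 and the galectin genes Lgals1 and Lgals3. They were chosen by name out of the 37980 genes in the table, and their levels were followed through all 24 sample groups. S100a8 and S100a9 form calprotectin, an abundant cytosolic protein of neutrophils and monocytes. S100a10 and S100a11 bind annexins, S100a4 binds nonmuscle myosin, and S100a4 and S100a6 are found in motile and activated cells, among them memory and effector T cells. Galectin-1 and galectin-3 are secreted and also act inside the cell, and in the thymus galectin-1 made by stromal cells is known to bind thymocytes.

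The study asked whether the homeobox factor Hoxb5 turns B cells into T cells. All mice were C57BL/6. The starting population, pro/pre-B cells of the marrow, was infected in culture with a virus carrying Hoxb5, sorted again and given to recipients that had received sublethal irradiation. Cells of the T lineage were then sorted from bone marrow or thymus, 1000 per library, and the labels do not give the vector's promoter, the age of the mice or how donor cells were told from host cells. The 9 induced groups were bone marrow and thymic early T progenitors (BM_iETPs and Thy_iETPs), the double negative stages iDN1 to iDN4, double positive cells (iDP) and CD4 and CD8 single positive cells (iCD4_SP and iCD8_SP). Each has a natural counterpart (BM_ETPs, Thy_ETPs, DN1 to DN4, DP, CD4_SP, CD8_SP). A further 6 natural groups from bone marrow were hematopoietic stem cells (HSC), multipotent progenitors (MPP), the starting pro/pre-B cells, and mature T, B and myeloid cells. Groups held 2 to 4 libraries. Of 76 libraries, pro/pre-B library 3 was identical to library 1 and was left out. The labels name no animal for any library, so the p-values measure the spread between these libraries, which may be technical.

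Levels are FPKM, sequenced fragments scaled by transcript length and library depth. The depth, placed from the steps between low values, was 0.972 to 11.3 fragments for each FPKM of a transcript 1 kilobase long (median library 4.26), and the 2 myeloid libraries were the shallowest, at 0.972 and 0.980. In a library of median depth 1 fragment was worth 0.166 FPKM for Lgals3, 0.294 to 0.343 for S100a6, S100a10, S100a13 and Lgals1, and 0.453 to 0.472 for S100a4, S100a8, S100a9 and S100a11. Values below about 1 FPKM therefore rest on very few fragments. Most libraries resembled their own group most closely. In the 5 that did not, both DN3 libraries resembled DN2, both iDN2 libraries resembled iDN3, and DN2 library 3 resembled iDN3. Summed B lineage markers were 6011 to 6469 FPKM in BM_iETPs, against 4541 to 5403 in pro/pre-B cells and 2.48 to 8.60 in BM_ETPs, and Cd3e, a component of the T cell receptor complex, was listed at 0 in the libraries of all of these groups. Differences between groups are given as differences of mean log2(FPKM + 1) with the standard error from limma, fitted to all 75 libraries, with Benjamini-Hochberg adjustment over 17416 genes and a threshold of 0.05. They understate the change of low genes, and in bulk samples fewer cells of a type and less RNA per cell cannot be told apart. The same fit with only the groups of a comparison kept 41 of the 79 member calls made over the 24 comparisons.

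The levels of the 9 genes spread very differently. S100a10, S100a11, S100a13 and Lgals1 were detected in all 75 libraries. S100a13 varied least, with group means from 23.6 FPKM in iDN3 to 115 FPKM in myeloid cells, a 4.85-fold range. The range was 9.02-fold for S100a10, 55.3-fold for S100a11 and 96.8-fold for Lgals1. S100a6 was listed at 0 in 8 libraries, S100a4 in 19 and Lgals3 in 23. S100a9 and S100a8 were listed at 0 in 54 and 55 libraries. Myeloid cells had the highest group mean for S100a4, S100a6, S100a8, S100a9, S100a11, S100a13 and Lgals3, DN1 for S100a10 and Thy_ETPs for Lgals1. The values of all genes summed to 2004005 and 1108527 FPKM in the 2 myeloid libraries, against 845820 in the median library. With every library scaled to an equal total, 5 of these 9 leading groups stayed the same, and DN1 led for S100a4 and S100a6, iDP for S100a13 and Thy_iETPs for Lgals1.

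**Figure D1:**
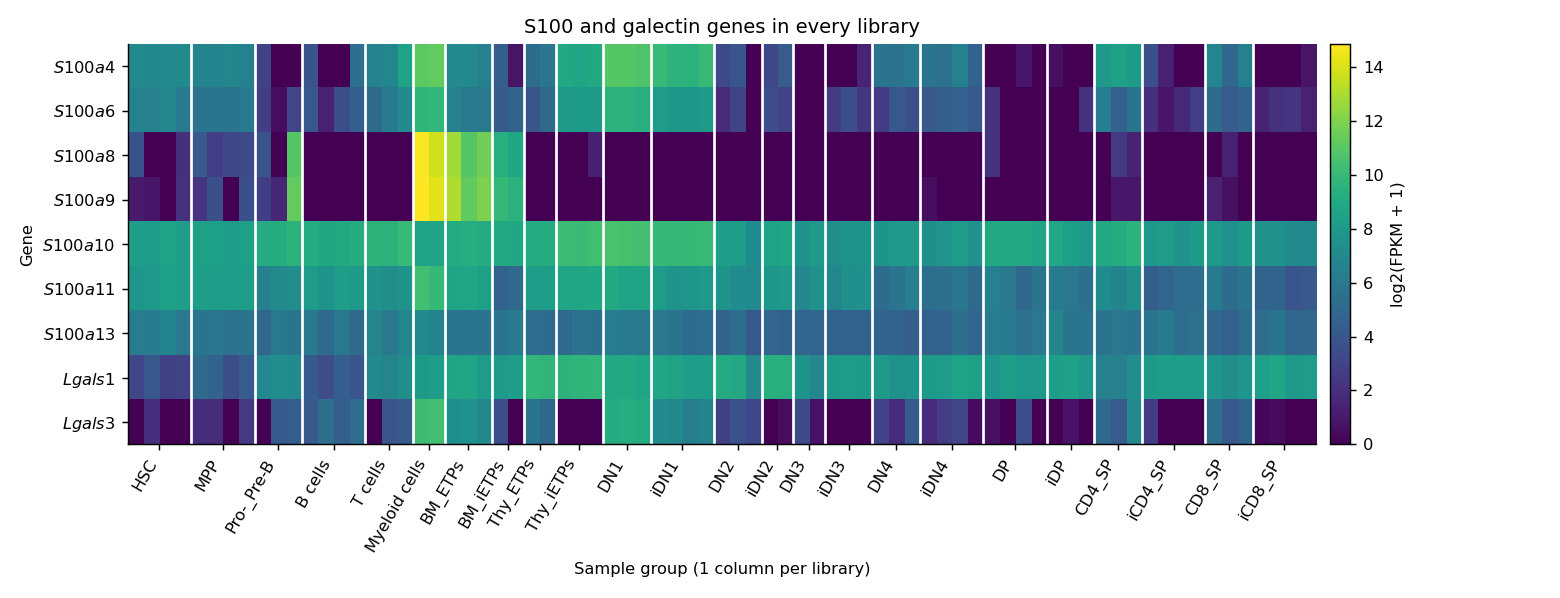
Levels of the 9 genes as log2(FPKM + 1), from 0 (dark) to above 14 (yellow), with 1 row per gene and 1 column per library, grouped by sample group. S100a8 and S100a9 are above 400 FPKM in the myeloid, BM_ETP and BM_iETP libraries and in 1 pro/pre-B library, and at or near 0 in every thymic group.

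The calprotectin genes lie next to each other on mouse chromosome 3, S100a8 at chr3:90668978-90670035 on the plus strand and S100a9 at chr3:90692632-90695721 on the minus strand (GRCm38, GENCODE vM21). Because they moved together, the bases upstream of their RefSeq starts (GRCm38.p6) are shown for both, ending before the first annotated exon. Capitals mark matches, on either strand, to TTGCNNAA (the core of the C/EBP motif), GAGGAA (a PU.1-type core) or TATAAA.
S100a8, chr3:90668821-90668977, plus strand: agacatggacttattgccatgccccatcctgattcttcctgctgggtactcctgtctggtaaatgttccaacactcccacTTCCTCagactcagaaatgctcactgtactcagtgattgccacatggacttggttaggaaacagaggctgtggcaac
S100a9, chr3:90695722-90695971, minus strand: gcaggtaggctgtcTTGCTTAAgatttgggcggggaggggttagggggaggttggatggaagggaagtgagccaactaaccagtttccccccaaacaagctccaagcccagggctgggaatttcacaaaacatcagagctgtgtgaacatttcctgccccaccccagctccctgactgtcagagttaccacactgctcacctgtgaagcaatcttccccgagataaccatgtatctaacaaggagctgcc
The S100a8 stretch of 157 bases held 1 GAGGAA match (read as TTCCTC) and the S100a9 stretch of 250 bases held 1 TTGCNNAA match. Over 250 bases upstream, 9.56% of all 32851 RefSeq promoters held TTGCNNAA, 23.3% GAGGAA and 12.4% TATAAA. The matches are descriptions of the letters only.

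S100a8 and S100a9 were highest in mature myeloid cells and marrow ETPs and at or near 0 in thymocytes. S100a8 stood at 27754 and 14048 FPKM in the 2 myeloid libraries, at 7188, 1954 and 3231 in BM_ETPs, and at 668 and 423 in BM_iETPs. S100a9 stood at 29798 and 18839 FPKM in myeloid cells, at 8798, 2368 and 3905 in BM_ETPs, and at 958 and 720 in BM_iETPs. Both induced marrow libraries lay below every natural marrow ETP library, for both genes. The starting pro/pre-B cells were split, with S100a8 at 13.4, 0 and 2009 FPKM and S100a9 at 5.78, 1.97 and 2484 in libraries 1, 2 and 4. HSC had 0 to 12.6 FPKM of S100a8 and 0 to 3.30 of S100a9, and MPP had 5.46 to 17.1 and 0 to 11.6. Mature T and B cells were listed at 0 for both genes in all of their 7 libraries. Of the 16 thymic groups, none had a library above 4.42 FPKM of S100a8 or 1.55 of S100a9, and both of these maxima were in natural single positive cells. In the 8 libraries with at least 100 FPKM of both genes, the S100a9 to S100a8 ratio ran from 1.07 to 1.70 with a median of 1.23.

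The neutrophil markers were high in the libraries with high S100a8 and S100a9, but not in proportion, and they were also high in HSC and MPP. A list of 14 such markers summed to 375 to 663 FPKM in HSC and 596 to 1040 in MPP, where S100a8 and S100a9 were low. Ngp and Camp, granule proteins of maturing neutrophils, stood at 469 and 708 FPKM in pro/pre-B library 4 but at no more than 1.35 and 6.16 in libraries 1 and 2. The summed list of 14 markers was 1548 FPKM in library 4 and 8.76 and 1.08 in the others. Elane and Mpo, enzymes of the primary granules of promyelocytes, were listed at 0 in all 3. In BM_iETPs, Ngp stood at 171 and 16.1 FPKM, Camp at 196 and 41.3, and Retnlg, a resistin-like protein of mature neutrophils, at 68.0 and 107. The summed list was 545 and 199 FPKM there, with Elane listed at 0 in both libraries. It was 22655 to 31290 in BM_ETPs, where Elane reached 6208 to 7935, and 18236 to 27898 in myeloid cells. These 2 ranges overlapped, whereas S100a8 and S100a9 were higher in both myeloid libraries than in any BM_ETPs library. At 1954 FPKM of S100a8, BM_ETPs library 2 had a sum of 23294, and at 2009 FPKM pro/pre-B library 4 had 1548. Markers of monocytes and macrophages summed to 20769 to 22084 FPKM in myeloid cells and 844 to 1387 in BM_ETPs. The part of neutrophils or monocytes in the S100a8 and S100a9 levels was not tested.

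**Figure D2:**
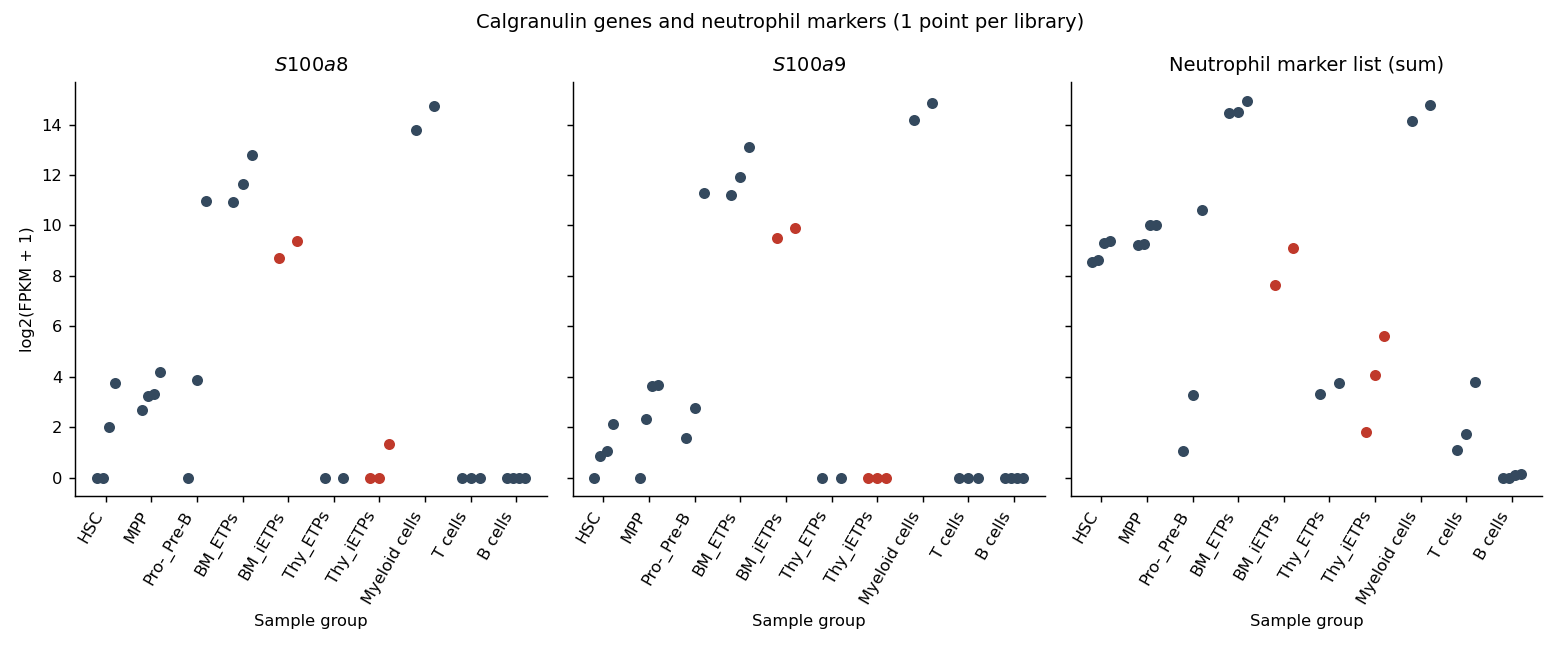
S100a8, S100a9 and the sum of 14 neutrophil marker genes as log2(FPKM + 1), with 1 point per library, induced groups in red. Libraries high in S100a8 and S100a9 are also high in the marker sum, including the pro/pre-B library at 2009 FPKM of S100a8. HSC and MPP are high in the marker sum (Prtn3) and low in the calprotectin genes. BM_ETPs and myeloid cells overlap in the marker sum and stand apart in S100a8 and S100a9.

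From BM_ETPs to BM_iETPs the S100a8 difference was −2.74 ± 1.13 (adjusted p = 0.0583) and the S100a9 difference −2.38 ± 1.04 (adjusted p = 0.0755), so neither passed limma's threshold, and without BM_ETPs library 2 S100a8 did (adjusted p = 0.0476). Against pro/pre-B cells, BM_iETPs were higher in S100a8 by 4.12 ± 1.13 (adjusted p = 0.00689) and in S100a9 by 4.50 ± 1.04 (adjusted p = 0.00107) on the log2 scale, although the ranges overlapped and the mean FPKM of S100a8 was lower in BM_iETPs (546 against 674). Both calls turned on single libraries. Without pro/pre-B library 4 the differences were 7.13 and 7.53, and without library 2 they were 1.65 (adjusted p = 0.312) and 2.68 (adjusted p = 0.0603). S100a8 was also lost without BM_iETPs library 1 (adjusted p = 0.0859). Thy_iETPs and B cells were lower than pro/pre-B cells in both genes (adjusted p from 2.51e-06 to 0.000316). Without pro/pre-B library 4 the Thy_iETPs call for S100a8 was lost (adjusted p = 0.112) and the other calls were kept (S100a9 in Thy_iETPs 0.000657, S100a8 and S100a9 in B cells 0.0249 and 0.000403). With only the groups of each comparison in the fit, none of the calls against pro/pre-B cells was made for either gene (adjusted p from 0.288 to 0.780).

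S100a4 (chr3:90603771-90606045) and S100a6 (chr3:90612882-90624181), both on the plus strand of GRCm38, lie close together. Each was the protein-coding gene with the pattern most like that of the other. Their correlation was 0.952 over 24 group means and 0.919 over 75 libraries, where the libraries of a group share their sort. The upstream bases are shown for this pair as well, from the same table and with the same capitals.
S100a4, chr3:90603520-90603769, plus strand: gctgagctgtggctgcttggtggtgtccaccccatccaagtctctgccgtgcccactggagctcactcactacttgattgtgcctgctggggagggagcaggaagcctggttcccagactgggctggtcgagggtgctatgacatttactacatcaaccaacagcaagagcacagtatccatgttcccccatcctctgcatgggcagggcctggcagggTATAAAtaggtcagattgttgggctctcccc
S100a6, chr3:90612644-90612881, plus strand: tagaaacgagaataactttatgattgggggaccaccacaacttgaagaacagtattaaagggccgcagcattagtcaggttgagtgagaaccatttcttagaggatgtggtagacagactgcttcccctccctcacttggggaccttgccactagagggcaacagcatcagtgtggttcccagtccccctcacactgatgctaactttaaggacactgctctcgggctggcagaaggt
The S100a4 stretch held 1 TATAAA match and the S100a6 stretch of 238 bases held no match to any of the 3 motifs.

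From DN1 on in natural cells, S100a4 and S100a6 fell to DN3, rose in part at DN4, fell at DP and rose in single positive cells. The induced cells showed each of these changes except the last rise. Natural Thy_ETPs lay below DN1, at 37.9 and 55.0 FPKM of S100a4 and 14.7 and 34.3 of S100a6. S100a4 stood at 1997, 1993 and 1720 FPKM in DN1, at 9.17, 14.4 and 0 in DN2, and was listed at 0 in both DN3 libraries. It stood at 50.8, 49.6 and 69.1 FPKM in DN4, 0 in 3 of 4 DP libraries with 0.883 in the other, 252, 368 and 276 in CD4_SP, and 110, 29.6 and 91.1 in CD8_SP. In the induced series S100a4 stood at 1032, 793, 759 and 1066 FPKM in iDN1, 8.51 and 18.2 in iDN2, 0, 0 and 1.71 in iDN3, 53.7, 48.4, 92.8 and 24.8 in iDN4, and 0.497, 0 and 0 in iDP. The iCD4_SP libraries stood at 11.4, 1.63, 0 and 0 FPKM, and the iCD8_SP libraries at 0, 0, 0 and 0.730. Every induced single positive library thus lay below every natural one. In natural cells, 8 natural killer and innate markers summed to 3432 to 3978 FPKM in DN1, 145 to 324 in DN2 and 80.0 and 84.6 in DN3. The sum was 26.1 to 53.9 in DN4, without a rise from DN3, then 0.639 to 12.2 in DP and 201 to 334 in single positive cells. The part of such cells in the course was not tested, and both DN3 libraries resembled DN2.

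S100a6 followed the same course at lower levels. It stood at 747, 749 and 676 FPKM in DN1 and 297, 236, 235 and 250 in iDN1, was listed at 0 in both DN3 libraries and 3 of 4 DP libraries, and stood at 83.4, 22.9 and 52.8 in CD4_SP and 37.4, 18.3 and 26.3 in CD8_SP. The iCD4_SP libraries held 3.09, 0.899, 2.24 and 5.75 FPKM of S100a6, and the iCD8_SP libraries 1.75, 3.40, 3.64 and 1.58. Outside the thymus both genes peaked in myeloid cells, with S100a4 at 2262 and 2550 FPKM and S100a6 at 848 and 919. HSC held 122 to 138 FPKM of S100a4 and 70.7 to 107 of S100a6, and MPP 92.1 to 114 and 49.0 to 62.9. Mature T cells held 93.9, 111 and 377 FPKM of S100a4, mature B cells 0 to 42.7, and pro/pre-B cells 6.67, 0 and 0. In the order of S100a4 group means, myeloid cells, DN1, iDN1 and Thy_iETPs each stood apart from the next group, and every later pair of neighbours overlapped. For S100a6 myeloid cells and DN1 stood apart, Thy_iETPs and iDN1 overlapped each other, and both lay above HSC. In the 14 libraries with at least 100 FPKM of both, the S100a4 to S100a6 ratio ran from 1.26 to 4.27 with a median of 2.66.

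In thymic ETPs S100a4, S100a6 and S100a10 ran the other way from the single positive cells, and Lgals3 ran the same way. Thy_iETPs held 517, 443 and 514 FPKM of S100a4 and 251, 277 and 275 of S100a6, against 37.9 and 55.0 and 14.7 and 34.3 in Thy_ETPs. All induced libraries lay above both natural ones. S100a4 was higher in Thy_iETPs by 3.40 ± 0.99 (adjusted p = 0.0200) and S100a6 by 3.51 ± 0.69 (adjusted p = 0.000239). S100a10 was higher too, at 1152, 1107 and 1298 FPKM against 567 and 587 (1.04 ± 0.22, adjusted p = 0.000672). Lgals3 was lower, listed at 0 in all 3 Thy_iETP libraries against 50.9 and 30.0 FPKM in Thy_ETPs (adjusted p = 0.000169). Thus 3 of 9 members were higher and 1 lower, where 4.49% of all genes tested were higher and 3.78% lower. Dendritic cell markers were lower, as Lgals3 was. They summed to 3.68 to 9.68 FPKM in Thy_iETPs, where Siglech and Xcr1 were at 0, and to 856 to 1486 in Thy_ETPs. This list holds Cd74 and H2-Ab1, and it summed to 6298 to 11162 FPKM in mature B cells. The sum of natural killer and innate markers was higher, as S100a4, S100a6 and S100a10 were, at 738 to 834 FPKM in Thy_iETPs and 515 to 624 in Thy_ETPs. Few of the 8 markers carried it, with 2, 4 and 4 above 0 in the Thy_iETPs libraries and 6 and 4 in Thy_ETPs. T lineage markers were lower, at 935 to 971 against 1564 to 2049 FPKM. The part of these cell types was not tested. The S100a4 call was lost with a pseudocount of 0.1 (adjusted p = 0.293) and without Thy_ETPs library 1 or 2 or Thy_iETPs library 1 (adjusted p = 0.168, 0.0911 and 0.0522), and none of the 4 calls was made with these groups alone in the fit.

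In the marrow, 3 of 9 members were lower in BM_iETPs than in BM_ETPs and none was higher, where 14.4% of all genes were higher and 16.8% lower. S100a11 showed this most clearly, at 24.6 and 33.8 FPKM in BM_iETPs against 405, 419 and 349 in BM_ETPs (−3.71 ± 0.31, adjusted p = 1.60e-15). S100a4 stood at 19.9 and 0.739 FPKM against 124, 128 and 87.1 (−4.22 ± 0.99, adjusted p = 0.000553), a call lost without BM_iETPs library 2 (adjusted p = 0.147). Lgals3 stood at 10.5 and 0 FPKM against 169, 184 and 122 (−5.53 ± 1.02, adjusted p = 1.28e-05). S100a6 stood at 16.4 and 26.8 FPKM against 92.7, 62.9 and 62.6 and missed the threshold (adjusted p = 0.0503), although with a replicate block it passed (adjusted p = 0.0381). S100a10, S100a13 and Lgals1 differed by 0.37 or less on the log2 scale, with adjusted p from 0.514 to 0.826. With these groups alone in the fit S100a4 and Lgals3 were lost (adjusted p = 0.106 and 0.0596) and S100a6 passed (0.0415). The neutrophil granule and B lineage markers given above move with these differences. So do markers of monocytes and macrophages, with a summed level of 64.9 to 83.1 FPKM in BM_iETPs and 844 to 1387 in BM_ETPs, and of natural killer and innate cells, with 4.85 to 11.4 against 736 to 791. Their part was not tested.

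Against the starting pro/pre-B cells, 4 members were higher and 1 lower in BM_iETPs, where 8.10% of all genes were higher and 7.40% lower. Besides S100a8 and S100a9 these were S100a6 (2.38 ± 0.69, adjusted p = 0.0107) and Lgals1, at 260 and 325 FPKM against 118, 153 and 144 (1.08 ± 0.35, adjusted p = 0.0269). S100a11 was lower (−2.04 ± 0.31, adjusted p = 5.54e-07), with 87.0, 130 and 159 FPKM in pro/pre-B cells. The S100a6 call was lost without pro/pre-B library 2 (adjusted p = 0.153) or BM_iETPs library 2 (0.152) and with a pseudocount of 0.1 (0.0828), and the Lgals1 call with quantile normalization (0.0701) and without pro/pre-B library 1 (0.0883) or BM_iETPs library 1 (0.0664) or 2 (0.237). Marker genes moved as well, with 4 of 14 neutrophil, 3 of 4 erythroid and 3 of 6 stem and progenitor markers higher in BM_iETPs. Of the B lineage markers 4 of 6 were lower. The B lineage sum was nevertheless higher, at 6011 to 6469 FPKM in BM_iETPs against 4541 to 5403 in pro/pre-B cells. The erythroid sum was 121 to 189 FPKM in BM_iETPs and 0 to 16.6 in pro/pre-B cells, and the stem and progenitor sum 15.5 to 22.1 against 0 to 2.24. Their part was not tested. From pro/pre-B cells to Thy_iETPs 5 members were higher and 3 lower, where 15.2% of all genes were higher and 14.6% lower. The higher ones were S100a4 (7.96 ± 0.89), S100a6 (5.99 ± 0.62), Lgals1 (2.61 ± 0.32), S100a11 (1.87 ± 0.27) and S100a10 (0.87 ± 0.20), with adjusted p of 0.000329 or smaller. Lgals3 was lower (adjusted p = 0.0124, lost without pro/pre-B library 2 or 4, at 0.110 and 0.126), beside S100a8 and S100a9. These 2 comparisons share the pro/pre-B libraries.

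At the DN1 stage 3 of 9 members were lower in induced cells and none higher, where 9.90% of all genes were higher and 8.93% lower. S100a10, which forms a tetramer with annexin A2, stood at 979, 955, 981 and 1083 FPKM in iDN1 against 1566, 1500 and 1371 in DN1 (−0.57 ± 0.18, adjusted p = 0.0211). S100a11 stood at 290, 209, 224 and 260 FPKM against 525, 389 and 406 (−0.84 ± 0.26, adjusted p = 0.0134). Lgals3 stood at 144, 121, 75.0 and 104 FPKM against 565, 624 and 565 (−2.42 ± 0.85, adjusted p = 0.0364). S100a4 and S100a6 did not pass (−1.07 ± 0.83, adjusted p = 0.444, and −1.51 ± 0.58, adjusted p = 0.0576), although no iDN1 library reached a DN1 library in either gene. Both passed with only these 2 groups in the fit (adjusted p = 0.0106 and 0.000931), and S100a6 with a replicate block (0.0420). The S100a10 call was lost without DN1 library 1 or 2 (adjusted p = 0.0830 and 0.0655), with equal totals (0.0551) and with quantile normalization (0.111), and the S100a11 call without DN1 library 1 (0.0941). The Lgals3 call was lost with a pseudocount of 0.1 (0.331), without any DN1 library (0.0797 to 0.0979) and without iDN1 library 2, 3 or 4 (0.0555 to 0.0849). Markers of natural killer and innate cells moved with this stage, with a summed level of 359 to 640 FPKM in iDN1 and 3432 to 3978 in DN1, as did those of dendritic cells (11.1 to 53.5 against 408 to 624) and of monocytes and macrophages (23.8 to 64.8 against 135 to 387). Among these lists only Fcgr1 was at 0 in every DN1 library, and Csf1r and Fcgr1 in every iDN1 library. Their part in the DN1 differences was not tested.

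Between DN2 and DP few members passed the test. At DN2 no member was called, where 0.879% of all genes were higher and 0.626% lower. Lgals3 stood at 0 and 0.411 FPKM in iDN2 against 5.94, 11.9 and 8.13 in DN2, with ranges apart, and did not pass (−2.98 ± 1.02, adjusted p = 0.156). Without DN2 library 1, S100a10 (0.88, adjusted p = 0.0305) and Lgals1 (1.39, adjusted p = 0.0292) were called higher in iDN2, and S100a10 alone without DN2 library 2 (0.93, adjusted p = 0.0241), with equal totals (adjusted p = 0.0166) or with quantile normalization (0.00729). DN2 library 3, which resembled iDN3, held 150 FPKM of S100a10 and 128 of Lgals1, below 307 and 326 and below 558 and 503 in the other DN2 libraries. Without it these differences were 0.37 and 0.34. At DN3 only S100a6 was higher in induced cells, at 5.10, 10.8 and 4.40 FPKM where both DN3 libraries were listed at 0 (adjusted p = 0.00928), against 2.35% of all genes higher and 1.19% lower. That call was lost without DN3 library 1 or 2 or iDN3 library 2 (adjusted p = 0.0539, 0.0569 and 0.0524) and with those groups alone in the fit (0.807).

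At DN4 no member passed the test, with 0.390% of all genes higher and 0.350% lower, and at DP again none, with 4.83% higher and 5.53% lower. The nearest at DP was S100a10, at 468, 342 and 257 FPKM in iDP against 515, 527, 499 and 415 in DP (−0.50 ± 0.18, adjusted p = 0.0728), which passed without DP library 4 (0.0476) or iDP library 1 (0.0144). At DN4 the S100a4 difference was −0.17 ± 0.83, an error too wide to show that the groups were alike, and the S100a11 difference was −0.32 ± 0.26.

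**Figure D3:**
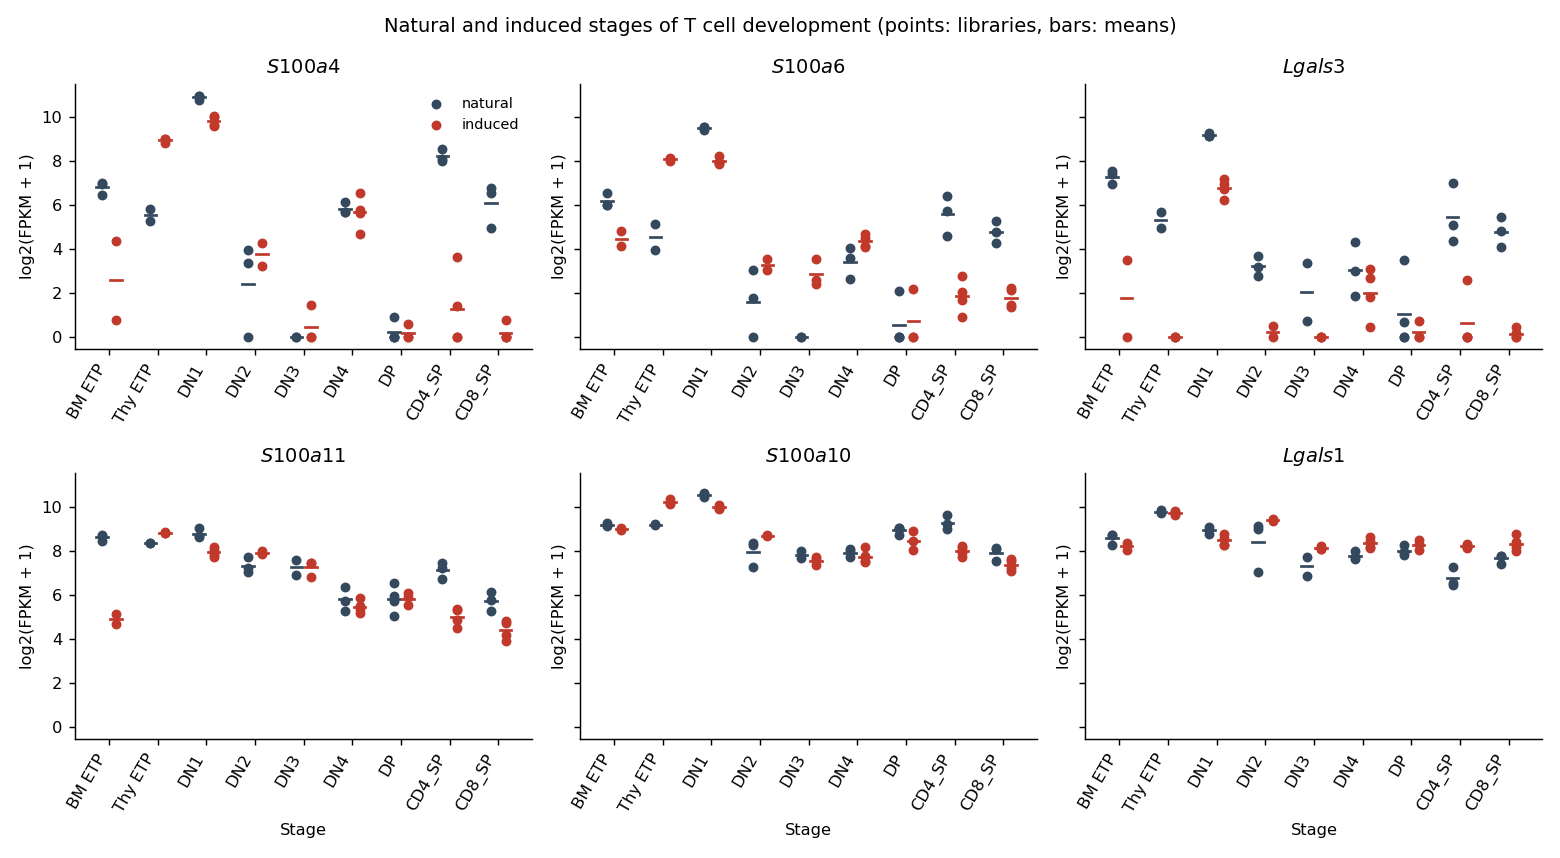
Levels of 6 genes, as log2(FPKM + 1), in natural (dark) and induced (red) cells at 9 stages, with 1 point per library and bars at the group means. In both series, the group means of S100a4, S100a6 and Lgals3 at DN2 to DP are below those of natural CD4_SP and CD8_SP. Libraries of CD8_SP overlap those of DN4 or iDN4. S100a4 spans 24.8 to 92.8 FPKM in iDN4 and 29.6 to 110 in CD8_SP. S100a6 spans 16.2 to 24.8 in iDN4 and 18.3 to 37.4 in CD8_SP. Lgals3 spans 2.63 to 19.0 in DN4 and 16.3 to 43.1 in CD8_SP. All induced single positive libraries lie below the natural ones for these genes.

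Of the 9 stages, the single positive ones held the most member calls. In iCD4_SP 5 of 9 members were lower and 1 higher than in CD4_SP, where 14.0% of all genes were higher and 12.4% lower. S100a4 was lower by 6.95 ± 0.83 (adjusted p = 1.40e-09) and S100a6 by 3.73 ± 0.58 (adjusted p = 6.34e-07). S100a11 stood at 21.7, 27.9, 38.8 and 39.2 FPKM against 148, 102 and 170 (−2.11 ± 0.26, adjusted p = 1.50e-09). S100a10 stood at 238, 299, 210 and 273 FPKM against 504, 585 and 782 (−1.28 ± 0.18, adjusted p = 1.11e-07). Lgals3 stood at 5.05, 0, 0 and 0 FPKM against 32.8, 19.4 and 126 (−4.82 ± 0.85, adjusted p = 8.99e-06). None of these 5 ranges overlapped. Lgals1 went the other way, at 275, 309, 309 and 289 FPKM in iCD4_SP against 92.6, 86.5 and 153 (1.45 ± 0.30, adjusted p = 9.01e-05). All 6 calls held without any library in turn and with these groups alone in the fit.

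In iCD8_SP the same 5 genes were lower than in CD8_SP and none was higher, where 5.63% of all genes were higher and 5.01% lower. S100a4 was lower by 5.89 ± 0.83 (adjusted p = 2.09e-07) and S100a6 by 2.97 ± 0.58 (adjusted p = 0.000122). S100a11 stood at 25.6, 27.1, 13.9 and 16.7 FPKM against 67.5, 37.1 and 52.7 (−1.30 ± 0.26, adjusted p = 0.000138). Lgals3 stood at 0.144, 0.370, 0 and 0 FPKM against 43.1, 16.3 and 27.1 (−4.63 ± 0.85, adjusted p = 4.85e-05). S100a10 stood at 193, 184, 145 and 134 FPKM against 265, 181 and 275, with overlapping ranges (−0.54 ± 0.18, adjusted p = 0.0437). That call was lost without CD8_SP library 1 or 3 (0.196 and 0.225) or iCD8_SP library 3 or 4 (0.120 and 0.159), with a replicate block (0.0662) and without the filter on low values (0.0558). With these groups alone in the fit S100a10 and S100a11 were lost (0.210 and 0.0712). Lgals1, at 333, 426, 252 and 284 FPKM against 216, 169 and 216, did not pass (0.67 ± 0.30, adjusted p = 0.161). Natural killer and innate markers moved with both comparisons, summing to 201 to 320 FPKM in CD4_SP and 275 to 334 in CD8_SP against 2.02 to 14.9 in iCD4_SP and 6.39 to 20.5 in iCD8_SP. Dendritic markers summed to 8.60 to 199 FPKM in CD4_SP and 37.2 to 331 in CD8_SP, and to no more than 19.7 in the induced groups. The lowest CD4_SP library lay within the iCD4_SP range of 3.50 to 16.9. Their part was not tested.

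**Figure D4:**
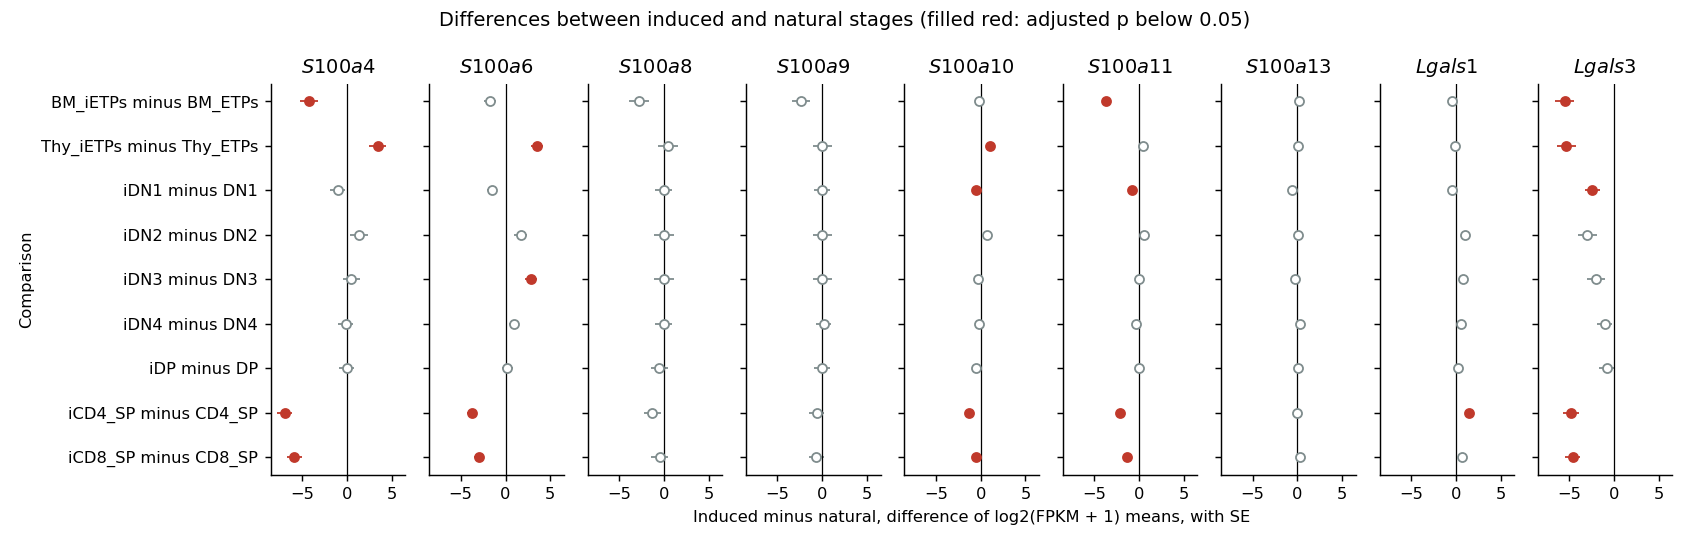
Induced minus natural differences of mean log2(FPKM + 1), with standard errors from limma, for each of the 9 genes (panels) at 9 stages (rows), filled red where the adjusted p is below 0.05. S100a4, S100a6, S100a10, S100a11 and Lgals3 are lower in both induced single positive groups, and S100a13 is filled at no stage.

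The steps between stages use the same libraries as the comparisons above, so they are not independent of them. From DN4 to DP 2 members fell and 2 rose in natural cells (background 11.8% higher, 12.8% lower) and the same numbers in induced cells (9.20% and 10.4%). S100a4 fell by 5.60 ± 0.83 and 5.47 ± 0.83 and S100a6 by 2.90 ± 0.58 and 3.63 ± 0.58. S100a10 rose by 1.02 ± 0.18 and 0.71 ± 0.18, and S100a13 by 1.32 ± 0.28 and 1.15 ± 0.28, with adjusted p of 0.00260 or smaller for all 8 changes. Without iDP library 1, at 113 FPKM of S100a13 where the other iDP libraries had 52.8 and 48.8, the induced rises of S100a10 and S100a13 were lost (0.0829 and 0.0676). Without DN4 library 2 or DP library 3 Lgals3 also fell from DN4 to DP (0.0454 and 0.0108). No member's step was called different between the sources (0.500% of all genes higher, 0.597% lower).

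From DP to CD4_SP S100a4 rose by 7.98 ± 0.83, S100a6 by 5.05 ± 0.58, Lgals3 by 4.42 ± 0.85 and S100a11 by 1.31 ± 0.26, and Lgals1 fell by 1.24 ± 0.30, that is 4 members higher and 1 lower (13.2% and 13.5% of all genes) with adjusted p of 0.000746 or smaller. From DP to CD8_SP 3 rose and 2 fell (10.7% and 13.2% of all genes). S100a4 rose by 5.86 ± 0.83, S100a6 by 4.24 ± 0.58 and Lgals3 by 3.75 ± 0.85, while S100a10 fell by 1.04 ± 0.18 and S100a13 by 1.01 ± 0.28, the last lost without CD8_SP library 2 (adjusted p = 0.0518). From iDP to iCD4_SP only S100a11 changed (−0.82 ± 0.26, adjusted p = 0.0293), where 5.90% of all genes rose and 3.96% fell. It was lost without iDP library 1 or 2 or iCD4_SP library 1 or 2 (0.0741 to 0.139), and S100a10 passed as well without iDP library 3 (0.0291) or with quantile normalization (0.00938). From iDP to iCD8_SP S100a10 (−1.09 ± 0.18), S100a11 (−1.42 ± 0.26) and S100a13 (−0.83 ± 0.28) fell and none rose, where 9.73% rose and 9.47% fell. S100a13 was lost without iDP library 1 or iCD8_SP library 3 or 4 (0.0771 to 0.373), and without iDP library 3 S100a6 passed (0.0374). With a pseudocount of 0.1 S100a6 passed in both steps (0.0428 and 0.0259).

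The steps to CD4_SP and CD8_SP share the DP libraries, and those to iCD4_SP and iCD8_SP the iDP libraries. The difference between natural and induced steps was also tested. It equals the induced minus natural difference in single positive cells less that in DP cells. It is therefore not independent of the single positive calls above. For DP to CD4_SP the induced step was lower than the natural one for 5 members and higher for 1, where 9.65% of all genes were higher and 7.69% lower. The differences were −6.92 ± 1.18 for S100a4, −3.93 ± 0.82 for S100a6, −4.01 ± 1.21 for Lgals3, −2.12 ± 0.36 for S100a11, −0.78 ± 0.26 for S100a10 and 1.18 ± 0.42 for Lgals1, with adjusted p from 1.01e-05 to 0.0410. The S100a10 call was lost without DP library 4, CD4_SP library 3, iDP library 1 or iCD4_SP library 3 (0.0593 to 0.157), the Lgals3 call without CD4_SP library 3 (0.0657) and with a pseudocount of 0.1 (0.0564), and the Lgals1 call without the filter (0.0575), with quantile normalization (0.124) and without any of DP library 2, CD4_SP library 1 or 2, iDP library 1 or 3 or iCD4_SP library 2, 3 or 4 (0.0513 to 0.120). For DP to CD8_SP the induced step was lower for 4 members and higher for none, where 4.09% of all genes were higher and 3.24% lower. These were S100a4 (−5.85 ± 1.18, adjusted p = 0.000372), S100a6 (−3.18 ± 0.82, 0.00716), S100a11 (−1.32 ± 0.36, 0.0131) and Lgals3 (−3.82 ± 1.21, 0.0377). S100a6 was lost without iDP library 3 (0.0669), S100a11 without DP library 3 or CD8_SP library 1 (0.0526 and 0.0697), and Lgals3 without any of the other 3 DP libraries, CD8_SP library 1 or 3, any iDP library or iCD8_SP library 1, 3 or 4 (0.0525 to 0.106). A pseudocount of 0.1 ended the S100a6 and Lgals3 calls (0.0796 and 0.110), and the absence of the filter that of Lgals3 (0.0532).

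Lgals1 had a pattern of its own. It was highest in thymic ETPs, at 905 and 841 FPKM in Thy_ETPs and 783, 861 and 892 in Thy_iETPs, a difference that did not pass the test (−0.05 ± 0.35). Next came iDN2 at 694 and 645 FPKM, below all thymic ETP libraries and above all other groups. HSC (6.11 to 15.6 FPKM), mature B cells (10.3 to 21.1) and MPP (10.9 to 34.2) lay below all 21 other groups, whose libraries held at least 86.5 FPKM. MPP were higher than HSC by 1.19 ± 0.27 (adjusted p = 0.00136), the only member called in that step, where 3.12% of all genes were higher and 5.01% lower. B cells were lower than pro/pre-B cells in Lgals1 by 3.08 ± 0.30 (adjusted p = 4.37e-13). In that comparison S100a8 and S100a9 were lower as well and S100a11 was higher, at 286, 199, 326 and 258 FPKM (1.11 ± 0.26, adjusted p = 0.000510), so 1 member rose and 3 fell, where 11.5% of all genes rose and 13.4% fell. Without pro/pre-B library 4 or B cell library 2 S100a6 was called higher too (0.0352 and 0.00692), and without pro/pre-B library 2 or 4 Lgals3 (0.0344 and 0.0273), and with equal totals S100a10 was called lower (0.00887).

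Lgals3 was above all a gene of myeloid cells (1235 and 1344 FPKM) and DN1. B cells held 16.7, 43.7, 20.8 and 39.9 FPKM and T cells 0, 14.0 and 17.8. Mature T cells were lower in Lgals3 than CD4_SP (−2.76 ± 0.91, adjusted p = 0.0260), the only member called there, where 9.28% of all genes were higher and 8.98% lower. That call was lost without T cell library 1 (0.405) or CD4_SP library 3 (0.173) and with a pseudocount of 0.1 (0.104), and without T cell library 2 S100a10 and S100a13 were called higher (0.0476 and 0.0161), S100a10 also without CD4_SP library 3 (0.0212). Myeloid cells were higher than BM_ETPs in 6 of 9 members and lower in none, where 25.2% of all genes were higher and 19.5% lower. These were S100a4 (4.42 ± 0.99), S100a6 (3.61 ± 0.69), Lgals3 (3.04 ± 1.02), S100a9 (2.45 ± 1.04), S100a11 (1.55 ± 0.31) and S100a13 (1.15 ± 0.33), with adjusted p from 1.32e-05 to 0.0493. Scaling to equal totals moved the median of all genes by −0.13 here, but it moved the members further. Under it the differences were 1.74 for S100a9, 0.44 for S100a13 and 2.33 for Lgals3, and these 3 calls were lost (0.183, 0.291 and 0.0599). S100a10 (−1.22) and Lgals1 (−1.05) were then called lower (2.42e-06 and 0.0118). S100a9 was also lost without either myeloid library or BM_ETPs library 2 or 3 (0.0949 to 0.229), Lgals3 without either myeloid library (0.0544 and 0.0669) and S100a13 without myeloid library 1 (0.0707), while S100a8 passed without BM_ETPs library 1 (0.0484). A pseudocount of 0.1 ended the S100a9 and Lgals3 calls (0.171 and 0.197), and S100a9 was lost with quantile normalization (0.145) and without the filter (0.0648).

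The genes most like each member, by Pearson correlation of group means over 24 groups among 13451 protein-coding genes, were given for description, since the groups share lineages. For S100a8 they were S100a9 (0.997), Camp (0.985) and Ngp (0.976), and for S100a9 S100a8, Camp (0.990) and Ngp (0.981). For S100a4 they were S100a6 (0.952), Ubash3b (0.916) and Chn2 (0.898), and for S100a6 S100a4, Ubash3b (0.934) and Fam129a (0.900). For S100a11 Pisd (0.925), Prr13 (0.903) and Sec24d (0.873) came first, for S100a13 Abca3 (0.887), Tmem63a (0.852) and Lsp1 (0.834), and for Lgals3 Aif1 (0.862), Capzb (0.856) and Ccr2 (0.851). Likeness was lower for S100a10, with Sh2d3c (0.821), the filament protein gene Vim (0.768) and Glmp (0.765), and for Lgals1, with Ubash3a (0.805), Asxl1 (0.802) and Selplg (0.782). Among the members, Lgals1 correlated with S100a4 at 0.031 and with Lgals3 at 0.104, and Lgals3 with S100a4 at 0.658.

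Related genes were read from 3 lists. Of the other S100 and galectin genes the table holds 16, of which 11 passed the filter on low values, as did 19 of 21 partner genes (annexins, receptors and glycoprotein ligands) and 12 of 12 glycosylation enzymes. In iCD4_SP 2 family members were higher and 2 lower, 1 partner was higher and 10 lower, and 1 enzyme was higher and 5 lower than in CD4_SP, with list medians of 0, −1.03 and −0.32 where the median of all genes was 0. Of all genes tested, 14.0% were higher and 12.4% lower there. Anxa2, the annexin that S100a10 binds, went against S100a10, at 1017 ± 103 FPKM (SD, n = 4) in iCD4_SP and 51.1 ± 6.95 (n = 3) in CD4_SP (4.29 ± 0.31, adjusted p = 8.84e-17). Cd7, a galectin-1 receptor of T cells, was lower (−3.33 ± 0.41, adjusted p = 2.26e-09), and so was Cd44, an adhesion receptor of activated cells (−2.56 ± 0.34, adjusted p = 1.71e-08). In iCD8_SP 1 family member was higher, 1 partner was higher and 6 lower, and 1 enzyme was higher and 2 lower, with medians of 0.04, −0.31 and 0.07 (all genes 5.63% higher and 5.01% lower). Cd7 was lower by 4.61 ± 0.41 there, St6gal1, the enzyme that caps galactose with alpha-2,6-linked sialic acid and so blocks galectin-1 binding, by 3.44 ± 0.40, and Myh9, the nonmuscle myosin heavy chain that S100a4 binds, by 2.55 ± 0.41 (adjusted p of 3.98e-06 or smaller for these 3).

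In BM_iETPs 1 family gene was higher and 2 lower, 2 partners were higher and 8 lower, and 4 enzymes were higher and 3 lower than in BM_ETPs, with medians of 0, −0.74 and −0.20 (all genes 14.4% higher and 16.8% lower). Anxa2 stood at 2.78 ± 1.57 FPKM (SD, n = 2) against 231 ± 14.4 (n = 3) (−6.00 ± 0.38, adjusted p = 2.24e-20), S100a1 was lower (−5.89 ± 0.79, adjusted p = 1.34e-08), and St3gal6, a sialyltransferase, was higher (5.57 ± 0.47, adjusted p = 3.19e-15). At Thy_iETPs 1 family gene, 3 partners and 1 enzyme were higher and 1 partner lower, with medians of 0.29, 0.12 and −0.14 (all genes 4.49% higher and 3.78% lower). There St6gal1 (3.48 ± 0.48, adjusted p = 2.40e-07), Cd7 (1.53 ± 0.49, adjusted p = 0.0370) and Spn (1.06 ± 0.24, adjusted p = 0.00163), which encodes CD43, were the largest. In iDN1 7 partners, 2 family genes and 3 enzymes were lower and 1 partner and 1 family gene higher, with medians of 0.17 for the family, −0.15 for partners and 0.07 for enzymes (all genes 9.90% higher and 8.93% lower). Ahnak, a scaffold protein bound by S100a10 with Anxa2, was lower by 3.05 ± 0.33 (adjusted p = 9.06e-11), Anxa1 by 2.81 ± 0.61 (adjusted p = 0.000342) and S100a1 by 1.87 ± 0.66 (adjusted p = 0.0385). At DN2 and DN4 no gene of the 3 lists was called, where 0.879% and 0.390% of all genes were higher and 0.626% and 0.350% lower. At DN3 1 partner and 1 enzyme were higher (all genes 2.35% higher and 1.19% lower), the partner being Cd69, a lectin-like activation receptor (1.78 ± 0.41, adjusted p = 0.00609). At DP 2 partners were higher and 2 lower, and 1 family gene and 1 enzyme lower (all genes 4.83% higher and 5.53% lower), with Lgals3bp, a secreted galectin-3 ligand, higher by 2.60 ± 0.38 (adjusted p = 1.65e-06), and Myh9 and Cd69 lower by 2.58 ± 0.41 and 2.40 ± 0.34.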

How the data were processed

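RNA of 1000 sorted cells per library was amplified and tagmented (Nextera XT), per the labels' protocols. The submitters' processing notes name bcl2fastq, TopHat, Cufflinks 2.2.1, Cuffnorm and the mouse build NCBIM37. The deposited values are FPKM per Ensembl gene, and the read mapping options, annotation version and library scaling are not given in the sources used here. Depth was placed from steps between low values of 4285 genes that have 1 transcript, 1000 bases or longer, and 73.2% to 93.6% of these values lay within 0.2 of a whole fragment. The CD8_SP library placed deepest may be misplaced.

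From the FPKM, log2(FPKM + 1) was computed for the 17416 genes that reached 1 FPKM in 2 or more libraries. In R 4.3.3, limma 3.58.1 fitted a mean for each group to 75 libraries, leaving 51 residual degrees of freedom, and its moderated test (robust, with trend) was two-sided. The 24 comparisons were 9 of induced against natural cells, 12 steps and 3 differences of steps. The fit was tested on simulated data for 2 of them, iCD4_SP and Thy_iETPs against natural cells, and for none of the others. Levels, likeness and figures were computed in Python 3.11.15 (pandas 2.3.3, numpy 2.4.6, matplotlib 3.10.9). Symbols and coordinates came from GENCODE vM21 (GRCm38) by gene ID, and 32916 IDs (86.7%) had a symbol. No NCBIM37 coordinates were used. Upstream sequence came from RefSeq (GRCm38.p6), was found for 7 of the 9 members, and was trimmed before annotated exons.

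The members and lists were chosen with earlier results of these data known. The members were named throughout, as were the 3 protein-coding genes most like each, and, per induced against natural comparison, up to 3 list genes past the threshold with the largest differences and at least 5 FPKM in the higher group. Marker genes were named where their level stands beside a member. Replicate numbers did not pair libraries: over 18 comparisons the correlation of deviations of same-numbered libraries ran from −0.040 to 0.131, and none had every pair above 0.1. Alternatives are a pseudocount of 0.1, no filter, equal totals, quantile normalization, a replicate block, only the compared groups, and each library left out in turn. Spearman's coefficient was the alternative for likeness.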

Additional observations from a re-analysis of the deposited data

Results flagged for a closer look

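Of 62 gene and group pairs with 4 differing libraries, 9 had 1 library whose gap to the next was above Dixon's critical value. In 7 of the 9 the other 3 libraries were all listed at 0. The rate of about 1 in 20 that chance usually gives is not known to hold for values at such a floor, so nothing is read from the number of pairs. In DP these were S100a4 at 0.883 FPKM and Lgals3 at 10.4 in library 3, and S100a6 at 3.32 and S100a8 at 3.54 in library 1. In iCD4_SP library 1 they were S100a4 at 11.4 FPKM and Lgals3 at 5.05. The others were S100a4 at 0.730 FPKM in iCD8_SP library 4, S100a9 at 0.477 in iDN4 library 1 and Lgals3 at 3.15 in HSC library 2. Several of these values rest on a few fragments.

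The step from DP to CD4_SP differed between induced and natural cells by −6.92 for S100a4, −3.93 for S100a6, −0.78 for S100a10, −2.12 for S100a11, 1.18 for Lgals1 and −4.01 for Lgals3 on the log2 scale, by limma's test of the difference of steps. The step from DP to CD8_SP differed by −5.85 for S100a4, −3.18 for S100a6, −1.32 for S100a11 and −3.82 for Lgals3.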

How the results depend on the processing

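No member's difference changed sign as a called value under any alternative. Of 79 member calls, 75 were kept without the filter, 75 with equal totals, 75 with quantile normalization, 70 with a pseudocount of 0.1, 41 with only the compared groups and 51 under every removal of 1 library. The replicate block kept 67 of 68 calls, with 4 members called in iCD8_SP, BM_iETPs and iDN1 against natural cells and 6 in iCD4_SP. The crossing of numbers was not tried. With only the compared groups, the members called were 0 for Thy_iETPs against Thy_ETPs, 5 for iDN1, 0 for iDN3, 3 for iCD8_SP, 0 for BM_iETPs and 5 for Thy_iETPs against pro/pre-B cells, 2 for MPP against HSC, 1 for B against pro/pre-B cells, 3 for CD4_SP and 3 for CD8_SP against DP, 0 for T cells against CD4_SP, 2 for iDP against iDN4, 0 for iCD4_SP against iDP, and 3 and 1 for the differences of the CD4 and CD8 steps. A pseudocount of 0.1 gave 0 for T cells against CD4_SP, 2 for iCD4_SP against iDP and 2 for the difference of the CD8 steps. Equal totals and quantile normalization gave 1 each for iDN2, and quantile normalization 2 for iCD4_SP against iDP. Over the removal of single libraries, the members called ran from 0 to 3 for iDN1, 0 to 2 for iDN2, 0 to 1 for iDN3, 0 to 1 for iDP, 2 to 5 for BM_iETPs against pro/pre-B cells, 3 to 7 for myeloid cells against BM_ETPs, 0 to 3 for T cells against CD4_SP, 2 to 4 for iDP against iDN4, 0 to 2 for iCD4_SP against iDP and 2 to 4 for the difference of the CD8 steps. Where a removal left 1 library in a group, that library was assumed to vary like the other groups. Equal totals kept 5 of 9 leading groups, and Spearman's coefficient kept 14 of 27 most similar genes. The cause of these changes was not tested. Depth limits values below about 1 FPKM, and in the myeloid libraries those below a few FPKM.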
